A study of Rattus norvegicus with 9 samples.

Results

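The 9 genes described here were Amdhd1, Ankrd7, Faxc, Gabre, Kcnk1, Slc6a20b, Prom2, Lamc3 and Upk1b, 9 of the 23026 genes measured in rat bone. They were chosen by name, with their values in these libraries known, as low-abundance genes whose level dropped from Sham to OVX and came back with OVX-AS-IV-High, and several of them were described at their selection as genes of the apical membrane of epithelia. In 8 of the 9 the libraries held that pattern. Upk1b went the other way: its mean was highest in OVX and lower in both Sham and OVX-AS-IV-High. Because both comparisons were used to select the genes, their values are given as a description and without a test, and OVX-AS-IV-High vs. Sham, the sum of both, is treated likewise.

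The study asked how astragaloside IV (AS-IV), a saponin of Astragalus root, acts on bone after loss of the ovaries. Poly(A) RNA from the bone of female Sprague–Dawley rats, bought at 8 weeks of age, was sequenced in 3 groups of 3 libraries. Sham rats lost only fat beside the ovary and received the vehicle sodium carboxymethyl cellulose (CMC-Na). OVX rats lost both ovaries and received the vehicle, and OVX-AS-IV-High rats lost both ovaries and received AS-IV at 80 mg/kg. By the methods, AS-IV was itself prepared in 1% CMC-Na. Gavage was given daily for 8 weeks, beginning 6 weeks after surgery. The labels give 1%, 2% and 3% CMC-Na for Sham 1, 2 and 3, whereas the methods give 1% for all. Ovariectomy in the rat stands for loss of ovarian estrogen. The labels name the tissue only as bone, the methods state that a femur of each rat was frozen for molecular work, and in such bulk RNA fewer cells of a type and less RNA per cell cannot be told apart.

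Several of these genes are best known from polarised epithelia, whose apical membrane faces a lumen. Prom2 encodes prominin-2, a glycoprotein of membrane protrusions; Upk1b a tetraspanin of the uroplakin plaques that cover the bladder; Slc6a20b a sodium-coupled imino acid transporter; and Kcnk1 the potassium channel TWIK-1. Gabre encodes the epsilon subunit of GABA-A receptors and Lamc3 the gamma-3 chain of laminins, the scaffold of basement membranes. Amdhd1 encodes an enzyme of histidine breakdown, Ankrd7 an ankyrin-repeat protein, and Faxc a relative of the metaxins named after a fly gene of axon growth.

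Each library held between 34874880 and 37298250 counts, and 16874 genes passed the filter on low counts. The libraries carried the genes of bone, such as Col1a1, the main collagen of bone matrix, and Ctsk, the collagen-degrading protease of osteoclasts, at mean FPKM of 961 and 599 (fragments scaled by gene length and depth). No gene of the table passed an adjusted p of 0.05 by the quasi-likelihood test of edgeR in either comparison. The lowest adjusted p was 0.118 for OVX vs. Sham and 0.652 for OVX-AS-IV-High vs. OVX, while 2775 and 1089 genes had an unadjusted p under 0.05. DESeq2 gave 790 and 27 genes with an adjusted p under 0.05, and limma on log2(FPKM + 0.1) gave 0 and 0.

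Start-site sequences are shown for Prom2, Gabre and Lamc3, which fell together and were among the genes most alike within groups, and for Upk1b, which moved against them. Each is the 250 bases before the RefSeq start of the gene in assembly GRCr8, 5′ to 3′ on the strand of the gene, with each GC box (GGGCGG, on either strand) in capitals. The windows are chr3:135215078-135215327 on the minus strand for Prom2, chrX:155120722-155120971 on the minus strand for Gabre, chr3:35562739-35562988 on the plus strand for Lamc3 and chr11:75459131-75459380 on the plus strand for Upk1b.
Prom2: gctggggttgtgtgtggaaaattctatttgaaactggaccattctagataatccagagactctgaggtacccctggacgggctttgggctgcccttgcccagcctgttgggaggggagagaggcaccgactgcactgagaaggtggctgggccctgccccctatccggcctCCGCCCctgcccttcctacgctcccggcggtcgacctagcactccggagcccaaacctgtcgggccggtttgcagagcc
Gabre: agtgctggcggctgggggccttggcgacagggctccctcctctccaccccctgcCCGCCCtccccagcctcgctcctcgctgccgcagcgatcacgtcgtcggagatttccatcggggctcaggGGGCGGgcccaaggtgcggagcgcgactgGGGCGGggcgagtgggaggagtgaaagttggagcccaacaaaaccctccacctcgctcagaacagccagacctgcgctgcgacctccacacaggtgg
Lamc3: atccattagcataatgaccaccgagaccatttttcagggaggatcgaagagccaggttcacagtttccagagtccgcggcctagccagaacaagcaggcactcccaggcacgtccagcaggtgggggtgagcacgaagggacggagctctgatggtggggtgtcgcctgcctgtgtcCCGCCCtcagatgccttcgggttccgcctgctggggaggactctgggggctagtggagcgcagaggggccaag
Upk1b: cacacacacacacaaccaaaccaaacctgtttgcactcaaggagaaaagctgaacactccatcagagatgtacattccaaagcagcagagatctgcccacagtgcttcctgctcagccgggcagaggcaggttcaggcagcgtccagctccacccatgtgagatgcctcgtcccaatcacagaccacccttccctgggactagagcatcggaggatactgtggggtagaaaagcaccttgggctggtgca

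The GC box was present once in the Prom2 and Lamc3 windows, 3 times in that of Gabre and 2 times in that of Faxc, and was not found in those of Upk1b, Ankrd7 and Slc6a20b. Of all 13374 RefSeq windows of this length, 51.8% held it, so its presence in 4 of the 7 genes with a window was close to the share among genes in general. The half-site AGGTCA, which estrogen and other nuclear receptors can bind, was found on neither strand in any of the 7 genes, against 10.9% of all windows. The letters TATAAA occurred 2 times before 1 of the 2 starts of Slc6a20b (7.84% of all windows) and CACGTG occurred once before Faxc (7.48%). The GC content was 62.4% in Prom2, 69.6% in Gabre, 62% in Lamc3, 72% in Faxc, 54.8% in Upk1b, 42% in Ankrd7 and 34% and 42% before the starts of Slc6a20b, around a median of 58.4% over all windows. No window was available for Amdhd1 and Kcnk1, so their start-site sequences were not examined.

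All 9 genes were rare transcripts. Their mean FPKM over the 9 libraries ran from 0.051 (Ankrd7) to 1.12 (Amdhd1) with a median of 0.179, against 5.40 for all genes that passed the filter. Levels of 1 gene between libraries are given below in CPM, counts scaled to a common library size. The tables list them under the gene identifiers 299735 (Amdhd1), 502733 (Ankrd7), 366333 (Faxc), 65191 (Gabre), 59324 (Kcnk1), 301083 (Slc6a20b), 192211 (Prom2), 311862 (Lamc3) and 303924 (Upk1b). All 9 passed the filter, and their summed counts over the 9 libraries ran from 84 (Faxc) to 1464 (Lamc3).

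Amdhd1 had 83, 35 and 43 counts across Sham 1 to 3, 25, 26 and 28 across OVX, and 72, 71 and 89 across OVX-AS-IV-High. The OVX libraries lay below all others and close to each other, and Sham 1 lay well above the other Sham libraries. Its mean was 1.51 ± 0.677 CPM across Sham, 0.709 ± 0.0440 across OVX and 2.12 ± 0.287 across OVX-AS-IV-High (SD, n = 3). The log2FC was -1.08 (SE 0.353) for OVX vs. Sham and 1.57 (SE 0.353) for OVX-AS-IV-High vs. OVX. It thus returned to a mean above that of Sham, with a log2FC of 0.49 (SE 0.340) for OVX-AS-IV-High vs. Sham. Sham 1 carried much of the first value, which was -0.66 without that library. The log2FC for OVX-AS-IV-High vs. Sham grew to 0.92 without Sham 1, and that for OVX-AS-IV-High vs. OVX was 1.585.

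Ankrd7 had 17, 18 and 20 counts across Sham, 6, 4 and 7 across OVX, and 17, 16 and 19 across OVX-AS-IV-High. The 3 groups were tight, OVX stood apart from both others, and OVX-AS-IV-High overlapped Sham. The means were 0.520 ± 0.0488, 0.153 ± 0.0432 and 0.474 ± 0.0448 CPM (SD, n = 3), a log2FC of -1.74 (SE 0.405) followed by one of 1.61 (SE 0.405). Among the 8 falling genes its OVX-AS-IV-High level was the nearest to Sham, with a log2FC of -0.13 (SE 0.371).

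Faxc was read 19, 10 and 15 times across Sham, 3, 4 and 5 times across OVX, and 9, 6 and 13 times across OVX-AS-IV-High. Every OVX library was below every other library, but by only 1 count between OVX 3 and OVX-AS-IV-High 2. The log2FC was -1.91 (SE 0.511) for OVX vs. Sham and 1.22 (SE 0.523) for OVX-AS-IV-High vs. OVX. The second value stayed past the thresholds in only 1 of the 9 fits that left out a library, and was 0.91 without OVX-AS-IV-High 3. With the replicate number as a block it was 1.19 and no longer called.

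**Figure D1:**
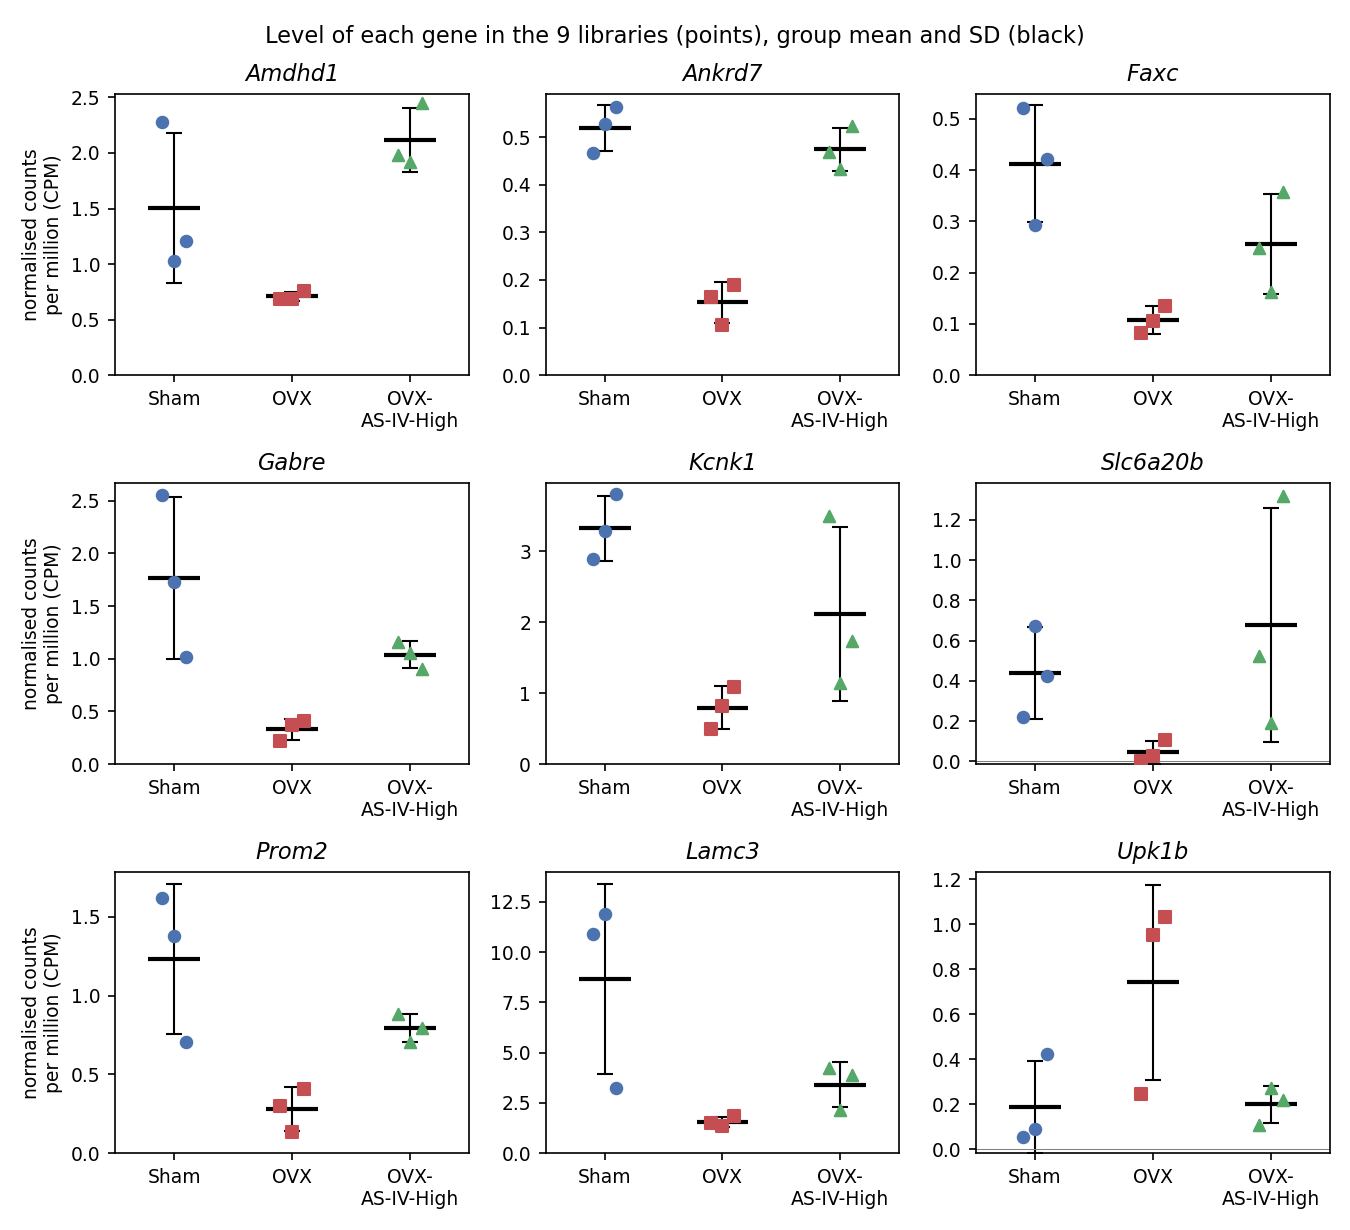
Level of each of the 9 genes in normalised counts (CPM), 1 panel a gene on its own linear scale, with the 3 libraries of each group as points and the group mean ± SD (n = 3) in black. In all panels but that of Upk1b the 3 OVX libraries lie below every Sham and every OVX-AS-IV-High library; in Upk1b OVX has the highest mean, 0.742 CPM, and the groups overlap.

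Among the channel and transporter genes, Gabre had 93, 59 and 36 counts across Sham, 8, 14 and 15 across OVX, and 42, 39 and 33 across OVX-AS-IV-High. OVX stood apart from both groups, and the OVX-AS-IV-High libraries were close to the lowest Sham library, Sham 3. The mean was 1.77 ± 0.771 CPM for Sham, 0.331 ± 0.10 for OVX and 1.04 ± 0.126 for OVX-AS-IV-High (SD, n = 3). The log2FC was -2.40 (SE 0.429), then 1.64 (SE 0.427), and both values kept their side of the thresholds in each fit that left out a library.

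Kcnk1 had 105, 112 and 135 counts across Sham, 18, 31 and 40 across OVX, and 127, 42 and 63 across OVX-AS-IV-High. Sham was high throughout, and OVX-AS-IV-High 1 reached the Sham range while OVX-AS-IV-High 2 lay only just above OVX 3. On the CPM scale those values were 3.50 for OVX-AS-IV-High 1, 1.14 for OVX-AS-IV-High 2 and 1.09 for OVX 3. The log2FC was -2.05 (SE 0.454) for OVX vs. Sham and 1.41 (SE 0.450) for OVX-AS-IV-High vs. OVX. The second value rested on OVX-AS-IV-High 1, without which it was 0.84. With the replicate number as a block over 9 libraries it was 1.36 and still called, and with the block in OVX and OVX-AS-IV-High alone it was 1.30 and no longer called.

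Slc6a20b had the largest log2FC of the 9 in both comparisons and the fewest counts in OVX. It was read 8, 23 and 15 times across Sham, 0, 1 and 4 times across OVX, and 19, 7 and 48 times across OVX-AS-IV-High. OVX 1 and OVX 2 lay under 3 counts, the limit that a count of 0 allows, and the OVX-AS-IV-High libraries differed widely. Pooled over libraries, 46 counts in Sham stood against 5 in OVX, a ratio of 9.50 per count sequenced (95% exact interval 3.79 to 30.6, counting error only). In OVX-AS-IV-High the 74 pooled counts were 14.7 times the OVX level (6.01 to 46.5). The fitted log2FC was -3.19 (SE 1.03), then 3.82 (SE 1.02), and these SE were the widest among the 9 genes. Single libraries moved both values: the first ran from -4.71 without OVX 3 to -2.64 without OVX 1, and the second from 2.89 without OVX-AS-IV-High 3 to 5.34 without OVX 3. Slc6a20a, its closest relative and next gene on the chromosome, may share reads with it, so the split of reads between the pair is uncertain. Slc6a20a itself held 373, 675 and 714 counts across Sham, 593, 591 and 418 across OVX and 524, 534 and 608 across OVX-AS-IV-High, with log2FC of -0.22 and 0.08.

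Prom2 had 59, 47 and 25 counts across Sham, 11, 5 and 15 across OVX, and 32, 26 and 29 across OVX-AS-IV-High. OVX was apart from both groups, and OVX-AS-IV-High lay at the level of Sham 3. Its means were 1.23 ± 0.475, 0.279 ± 0.139 and 0.794 ± 0.0885 CPM (SD, n = 3). The log2FC was -2.13 (SE 0.487), then 1.50 (SE 0.487). Like Gabre, Ankrd7 and Slc6a20b, it stayed past the thresholds in both comparisons in all 9 fits that left out a library.

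Lamc3 gave the most counts of the 9 and returned least. It had 397, 405 and 115 counts across Sham, 55, 51 and 68 across OVX, and 153, 79 and 141 across OVX-AS-IV-High. Sham 3 held less than OVX-AS-IV-High 1 and OVX-AS-IV-High 3, so that the treated group overlapped Sham through that library alone. The mean was 8.68 ± 4.73 CPM across Sham, 1.56 ± 0.256 across OVX and 3.41 ± 1.11 across OVX-AS-IV-High (SD, n = 3). The log2FC was -2.47 (SE 0.478), then 1.12 (SE 0.466), and -1.35 (SE 0.456) for OVX-AS-IV-High vs. Sham. The second value lost its call in 5 of the 9 fits that left out a library, with 0.94 without OVX-AS-IV-High 1. With the replicate number as a block over 9 libraries it was 1.10 and no longer called, and with the block in OVX and OVX-AS-IV-High alone it was 1.085 and still called.

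Upk1b ran against its description. It was read 2, 3 and 15 times across Sham, 9, 36 and 38 times across OVX, and 4, 10 and 8 times across OVX-AS-IV-High. OVX 2 and OVX 3 were far above the rest, but OVX 1 was below Sham 3 and OVX-AS-IV-High 2, so the groups overlapped. The log2FC was 1.96 (SE 0.799) for OVX vs. Sham, -1.87 (SE 0.792) for OVX-AS-IV-High vs. OVX and 0.09 (SE 0.847) for OVX-AS-IV-High vs. Sham. The call was lost in 4 and 5 of the 9 fits that left out a library, at log2FC of 1.52 without Sham 1 and -1.56 without OVX 3. Without Sham 3 the first value was 3.32. The value for OVX-AS-IV-High vs. Sham ran from -0.34 without Sham 1 to 1.45 without Sham 3, so that its direction rested on single libraries.

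**Figure D2:**
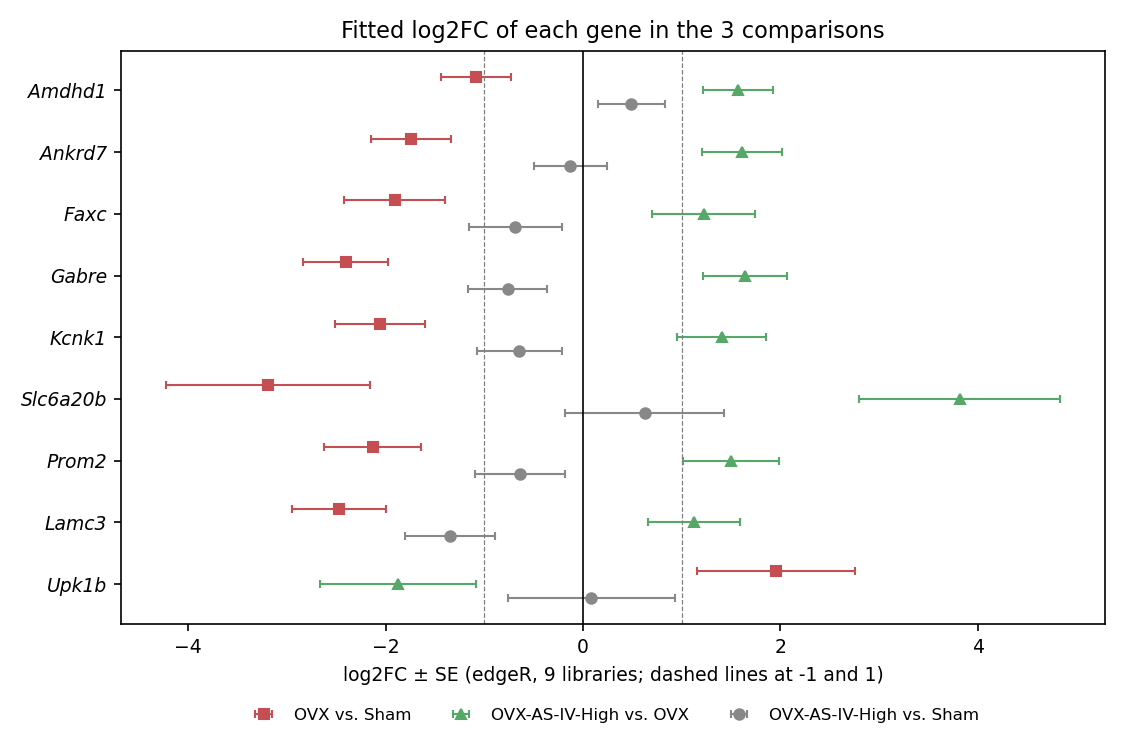
Fitted log2FC of each gene with its SE (bars) for OVX vs. Sham (squares), OVX-AS-IV-High vs. OVX (triangles) and OVX-AS-IV-High vs. Sham (circles), from the edgeR fit over 9 libraries. In 8 genes the squares lie below -1 and the triangles above 1, Upk1b is the mirror of them, and the circles of 6 of the 8 lie below 0.

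All 9 genes were called (unadjusted p under 0.05 and absolute log2FC over 1) in both comparisons. For the 8 that fell and rose this follows from the way they were selected. Upk1b, also chosen with its values known, was called with the opposite signs. Across the 16874 genes tested, 2.03% were called lower and 1.08% called higher for OVX vs. Sham. For OVX-AS-IV-High vs. OVX, 0.456% were called higher and 0.373% called lower. The 8 genes that fell and rose were among 32 such genes in the table (0.19%), and Upk1b was among 11 genes of the opposite pattern (0.0652%). In the 8, the OVX libraries were all below those of Sham, as in 10.6% of all genes, and the OVX-AS-IV-High libraries were all above those of OVX, as in 6.38%. Both held at once in 1.39% of all genes. Both comparisons used the same 3 OVX libraries. The medians over the 8 genes were -2.09 and 1.54, against -0.01 and -0.02 over all genes tested.

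The fold was 2.12 to 9.13 for OVX vs. Sham and 2.18 to 14.1 for OVX-AS-IV-High vs. OVX over the 9 genes, both upper ends from Slc6a20b, whose values moved most with single libraries, as given above. The share of the first log2FC that the second made up ran from 0.455 in Lamc3 to 1.45 in Amdhd1, with a median of 0.694 over the 8 genes. Without Sham 1 that of Amdhd1 was 2.39. For OVX-AS-IV-High vs. Sham 6 of the 8 had a negative log2FC, and Amdhd1 and Slc6a20b a positive one, around a median of -0.64. The direction in Slc6a20b rested on OVX-AS-IV-High 3, without which its log2FC was -0.30 and 7 of the 8 were negative. The OVX-AS-IV-High libraries overlapped the range of Sham in all 9 genes, in Lamc3 through Sham 3 alone. The share of all genes with such an overlap was not counted, so it is no measure of return to Sham.

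The genes at the edge of the fold threshold were Amdhd1, just inside for OVX vs. Sham, and Lamc3, just inside for OVX-AS-IV-High vs. OVX. Nearest to the limit on p were Faxc, Upk1b and Lamc3, in that order, all for OVX-AS-IV-High vs. OVX. Just outside the fold threshold lay Rflna, which encodes the actin-binding protein refilin A, with log2FC of -1.22 and 0.996, and the histone gene H2bc12, with -1.04 and 0.984. On the side of Upk1b, RGD1560017 lay just outside with 1.40 and -0.99. Rflna had 203, 214 and 243 counts across Sham, 64, 80 and 154 across OVX, and 188, 157 and 240 across OVX-AS-IV-High, and so repeated the course of the 8 genes at a higher level.

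On a scale where 0 is the OVX mean and 1 the Sham mean of log2 CPM, the median of the 8 falling genes was 1.23, 1.02 and 0.898 in Sham 1 to 3 and 0.858, 0.632 and 0.817 in OVX-AS-IV-High 1 to 3. The OVX libraries lay at -0.106, -0.0539 and 0.167. No OVX-AS-IV-High library reached the median position of the lowest Sham library. OVX-AS-IV-High 2 was the least returned, and within it the genes ran from 0.202 in Lamc3 to 1.45 in Amdhd1. OVX 3 was above the OVX mean in each of the 8 genes.

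**Figure D3:**
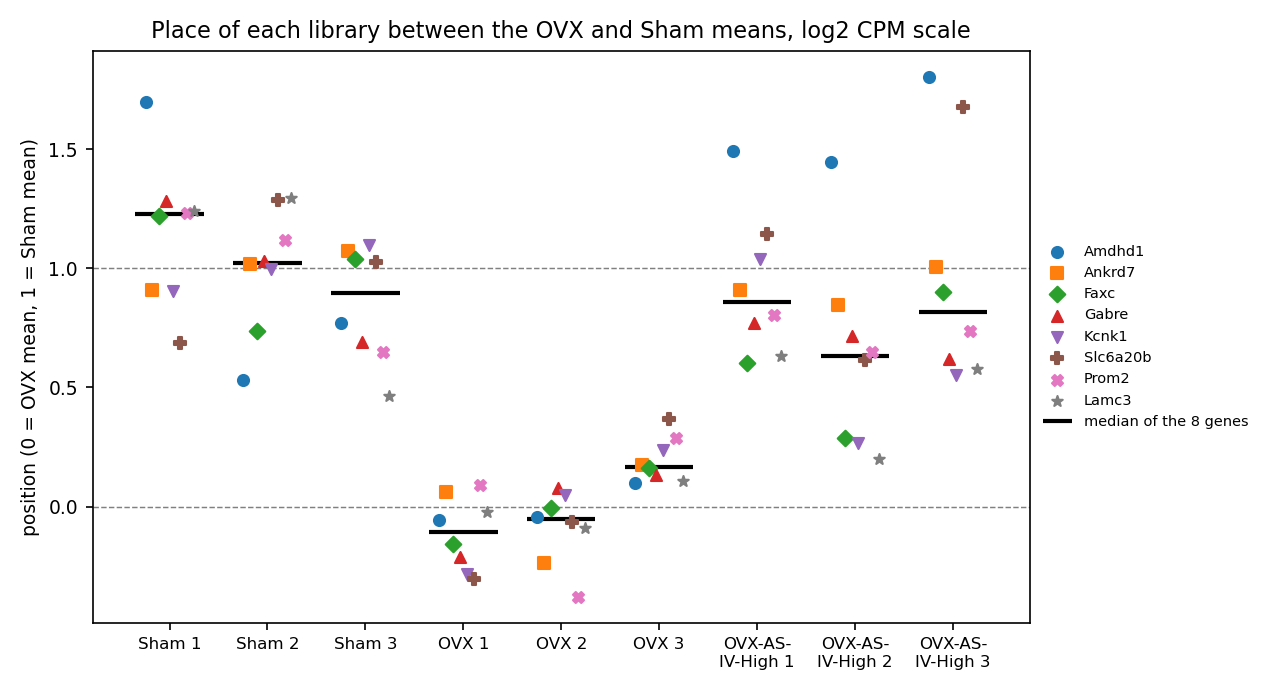
Place of each of the 9 libraries between the OVX mean (0) and the Sham mean (1) on the log2 CPM scale for the 8 falling genes (symbols), with the median of the 8 as a black line. The medians lie between 0.898 and 1.23 across Sham, between -0.106 and 0.167 across OVX, and between 0.632 and 0.858 across OVX-AS-IV-High.

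The spread within groups differed strongly between the genes. It is given as the variance of the counts between libraries of a group over that of counting error alone, where 1 means counting error only. It was 0.240 in Ankrd7 and 0.975 in Faxc, both at or under the level of counting error. It was 3.19 in Prom2, 4.50 in Amdhd1, 4.80 in Gabre, 6.09 in Upk1b and 8.39 in Slc6a20b. Kcnk1 reached 10.2, mostly through OVX-AS-IV-High, and Lamc3 35.2, mostly through Sham. The 4507 tested genes of a like total count (84 to 1464) had a median of 5.20 with quartiles of 3.01 and 9.80, and the 9 genes had a median of 4.80. By group, their median was 6.81 for Sham, 1.32 for OVX and 1.42 for OVX-AS-IV-High. Where libraries differ beyond counting error this ratio grows with the count, and OVX was the low group by selection in all but Upk1b. These medians therefore do not rank the groups by uniformity.

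The 8 falling genes did not share one course inside the groups. Over the 28 pairs the correlation between deviations of the libraries from their group mean (9 libraries, given as a description) had a median of 0.228 and ran from -0.375 to 0.757, with 23 pairs above 0. It was highest for Prom2 with Lamc3 (0.757), Amdhd1 with Faxc (0.727) and Gabre with Lamc3 (0.666). Sham 3 shows the split: it was the lowest Sham library in Gabre, Prom2 and Lamc3, and the highest in Kcnk1 and Ankrd7. Upk1b, also highest in Sham 3, ran against Lamc3 (-0.676) and Prom2 (-0.595).

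For 39 further genes past the filter in the families of the 9, 2 were called lower and 1 higher for OVX vs. Sham, and 0 in either direction for the second comparison. Of all genes tested, 2.03% were called lower and 1.08% higher for OVX vs. Sham. For the second comparison 0.456% were called higher and 0.373% lower, so 0 of 39 does not set these families apart. The GABA-A receptor subunits Gabrd, Gabrq, Gabrr1 and Gabrr2 were among the 39 and were not called.

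Among 10 further laminin chains, Lama2, the chain of muscle and nerve basement membranes, and Lama5 were called lower in OVX, with log2FC of -1.42 and -1.04 (edgeR adjusted p = 0.272 and 0.160). Their log2FC for OVX-AS-IV-High vs. OVX was -0.21 and -0.32, where that of Lamc3 was 1.12. Lamb2 had -0.97 (edgeR adjusted p = 0.118) and then 0.13. Its counts were 7054, 7644 and 6177 across Sham, 3485, 4301 and 3463 across OVX, and 5078, 3807 and 3194 across OVX-AS-IV-High, so that OVX was apart from Sham and overlapped OVX-AS-IV-High. Lamc1, the gamma chain of most laminins, had log2FC of 0.05 and -0.27 at a mean of 8.43 FPKM, against 0.696 FPKM for Lamc3.

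Prom1, the other prominin and a stem-cell marker, had a mean of 12.5 FPKM, against 0.179 for Prom2, with log2FC of 0.01 and 0.14. It was read 2131, 1953 and 1795 times across Sham, 2030, 2067 and 2118 times across OVX, and 2467, 2130 and 2117 times across OVX-AS-IV-High. Of 9 further two-pore potassium channels, Kcnk2 alone was called, higher in OVX with log2FC of 1.13 (edgeR adjusted p = 0.153) and 0.01 for OVX-AS-IV-High vs. OVX. None of the 11 further SLC6 transporters and none of the 3 metaxins was called. The other genes of histidine breakdown did not pass the filter: Hal, its first enzyme, had 0 to 8 counts a library and Ftcd 0 to 14. Of the uroplakins besides Upk1b, only Upk3bl1 passed. Upk1a, its closest relative, had 10, 7 and 0 counts across Sham, 1, 2 and 1 across OVX, and 4, 3 and 3 across OVX-AS-IV-High, and Upk2 had 1 count in the whole study.

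**Figure D4:**
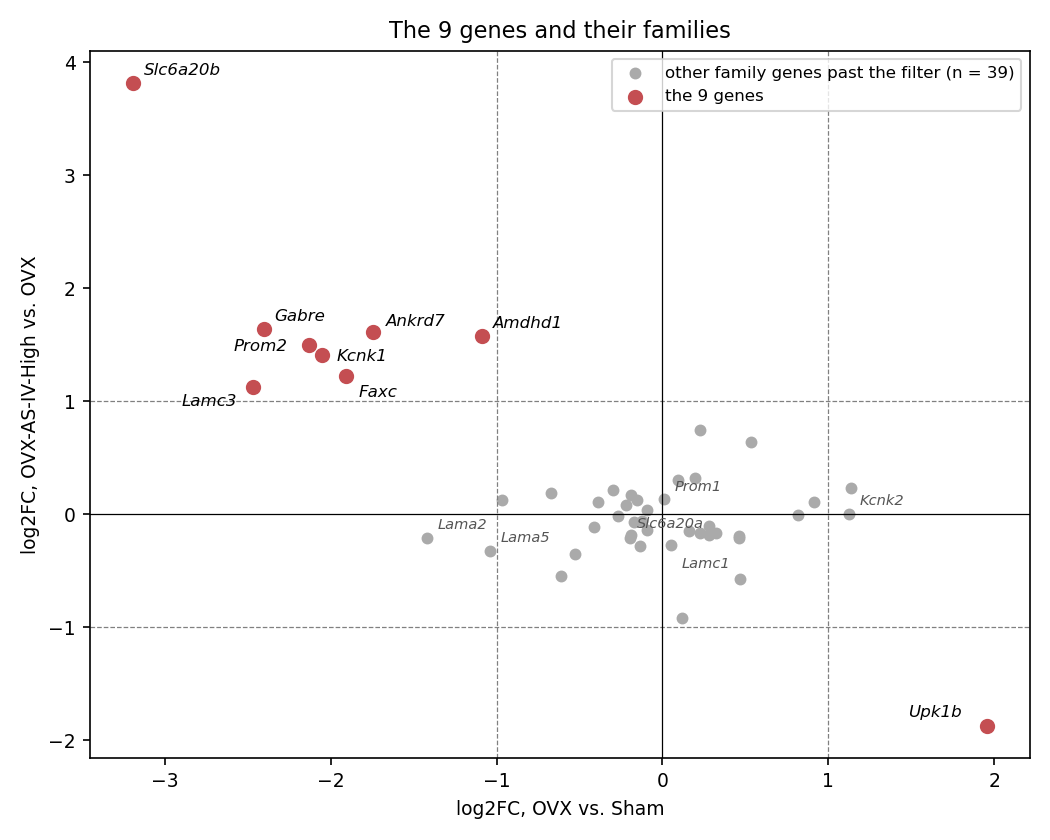
Fitted log2FC for OVX vs. Sham (x axis) against that for OVX-AS-IV-High vs. OVX (y axis) for the 9 genes and for 39 further genes of their families past the filter on low counts; dashed lines stand at -1 and 1, and the 2 axes share the OVX libraries. All of the 9 genes but Upk1b lie in the upper left corner, where their selection puts them, and Upk1b lies in the lower right. No other plotted gene lies past both lines. Of all genes tested, 0.19% were called lower and then higher, and 0.0652% the other way.

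By the annotation in the deposited tables, 4 of the 9 genes, Kcnk1, Prom2, Upk1b and Slc6a20b, were assigned to the apical plasma membrane, a trait that was part of their selection and is given as a description. Of the other 324 apical genes 11 were called lower (3.40%) and 2 higher for OVX vs. Sham, around a median log2FC of -0.01. Over all genes tested the shares were 2.03% lower and 1.08% higher. For OVX-AS-IV-High vs. OVX, 1 apical gene was called higher (0.309%) and 0 lower, around a median of -0.01, against 0.456% and 0.373% of all genes tested. The 1 that fell and rose was Igfbp2, a secreted binding protein of insulin-like growth factors. Igfbp2 had 501, 771 and 696 counts across Sham, 13, 43 and 12 across OVX, and 584, 38 and 10 across OVX-AS-IV-High, so that OVX-AS-IV-High 1 alone was at the level of Sham.

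Markers of epithelium were uneven, and none that passed the filter was called in either comparison. Of 14 simple-epithelium genes measured, 9 passed. Cdh1 had the highest level of that list (53.7 CPM on average), St14 had 216 to 333 counts a library, Krt8 67 to 196, Cldn4 54 to 176 and Rab25 70 to 102. Epcam, a defining epithelial gene, had 4 to 19 counts a library, and Krt18, Krt19, Cldn3, Elf3 and Prss8 did not pass. The summed level of the list was 75.2 to 83.7 CPM across Sham, 65.1 to 75.9 across OVX and 61.4 to 73.8 across OVX-AS-IV-High. Of 7 stratified-epithelium genes measured, 5 passed, among them Sfn with 207 to 554 counts a library and Dsg3 with 5 to 620, while Krt14, of basal squamous cells, had 1 count in all 9 libraries. That list summed to 8.06 to 22.6 CPM across Sham, 10.9 to 18.6 across OVX and 16.6 to 26.5 across OVX-AS-IV-High, so that the groups overlapped. Of the urothelial genes 2 passed, Gata3 and Pparg, while the uroplakins Upk1a, Upk2, Upk3a and Upk3b of that list did not. Upk2, of bladder, had 1 count in all 9 libraries. The part of these lists in the results was not tested. Of the kidney and liver lists, with 2 and 3 genes past the filter, 0 were called.

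Other marker lists moved with the groups or with single libraries, and their part in these results was not tested. The summed B lineage genes were 853, 885 and 863 CPM in OVX, above all of Sham (496 to 635) and OVX-AS-IV-High (597 to 824), the mirror of the 8 falling genes, though 0 of 4 were called. Gabre was low where that sum was high: its highest libraries, Sham 1 and Sham 2, had the lowest sums and its 3 lowest libraries, all OVX, the highest. The skeletal muscle sum was 9597, 5926 and 1689 CPM across Sham 1 to 3, 1663 to 3332 across OVX and 564 to 4628 across OVX-AS-IV-High, with 0 of 9 genes called. Lamc3, Prom2 and Gabre were lowest among Sham in Sham 3, where that sum was also lowest. Of 8 adipocyte genes 4 were called higher in OVX, against 1.08% of all genes tested. They were Adipoq, Plin1, Cidec and Lep (edgeR adjusted p = 0.167, 0.152, 0.206 and 0.129). The others, Fabp4, Cfd, Plin4 and Lipe, had log2FC of 0.58, 0.15, 0.21 and -0.04 for OVX vs. Sham and were not called. The adipocyte sum was 497 to 701 CPM across Sham, 680 to 945 across OVX and 602 to 933 across OVX-AS-IV-High.

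Upk1b was high in most libraries with a high sum of osteoblast and osteocyte genes, led by Col1a1 at 5584 CPM on average. Not all genes of the list followed: Dmp1 had 7715, 8807 and 8126 counts across Sham and 4229, 5965 and 14833 across OVX. On the log2 scale over the 9 libraries Upk1b correlated at 0.916 with the sum of the list. Next came the osteoclast (0.824), adipocyte (0.788) and B lineage (0.784) sums. Gabre is set beside the B lineage list and Upk1b beside that of osteoblasts and osteocytes. These lists were picked once the values were seen. Gabre ran most closely against its list (-0.900 on the log2 scale), and Upk1b most closely with its own. The osteoblast and osteocyte sum was 11744 and 10580 CPM in OVX 2 and OVX 3, where Upk1b was highest (0.950 and 1.03 CPM), and 8979 CPM in Sham 3, the next highest Upk1b library (0.423 CPM). It was 3383 and 4538 CPM in Sham 1 and Sham 2, where Upk1b was lowest (0.0550 and 0.0880 CPM). OVX-AS-IV-High 2 departed from this order, with a sum of 10043 CPM and 0.271 CPM of Upk1b. Of the 9 genes on that list Bglap, the osteocalcin gene, was called higher in OVX, with log2FC of 1.21 (edgeR adjusted p = 0.199).

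**Figure D5:**
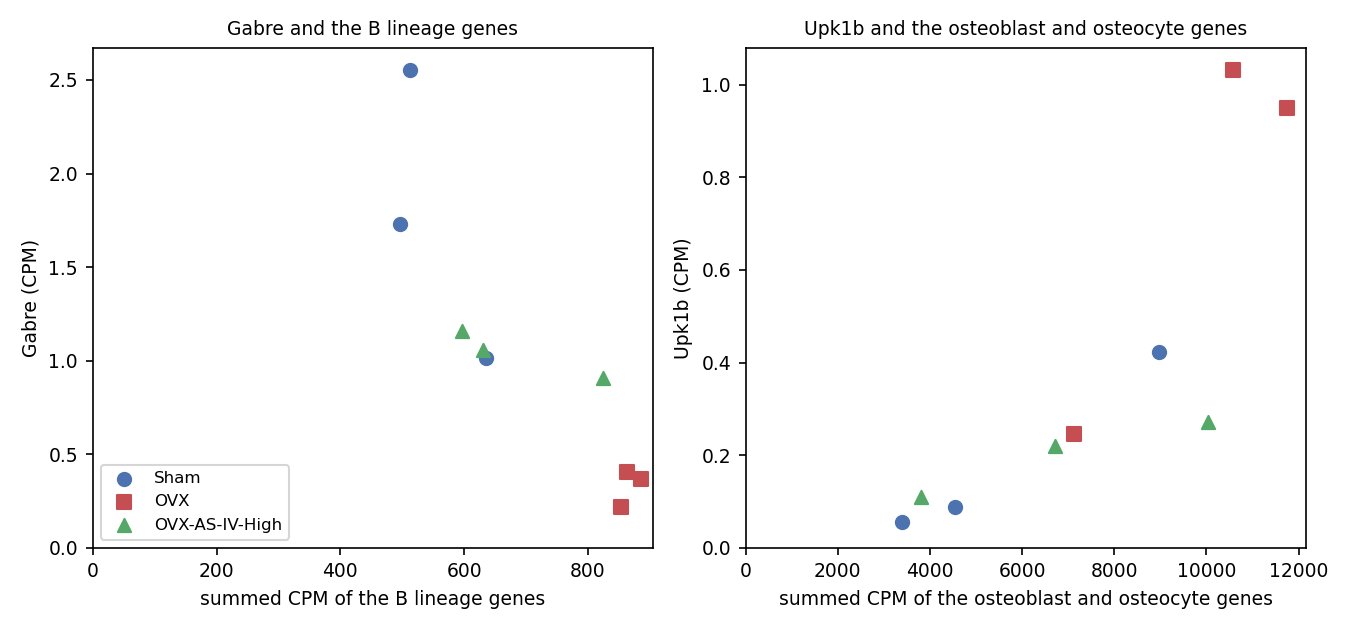
Left, Gabre against the summed B lineage genes, and right, Upk1b against the summed osteoblast and osteocyte genes, in CPM on linear axes with 1 point a library (circles Sham, squares OVX, triangles OVX-AS-IV-High). The 3 OVX libraries hold the highest B lineage sums (853 to 885) and the lowest Gabre, and Upk1b is highest in OVX 2 and OVX 3, the libraries with osteoblast sums of 11744 and 10580.

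For the remaining lists the groups overlapped. The summed levels in Sham, OVX and OVX-AS-IV-High shared part of their range for osteoclast, chondrocyte, erythroid, neutrophil, endothelial and stromal genes, with 0 called in either comparison. For 7 Schwann cell and nerve genes, 0 were called in either comparison and the sums also overlapped.

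The genes most like the 9 were sought by Pearson's r of log2 CPM over the 9 libraries, which share the 3 groups, so that r is a description. The closest to the mean of the 9 was Zfp335, a zinc-finger gene, at r = 0.975. It had 2063, 1921 and 1952 counts across Sham, 1579, 1609 and 1744 across OVX, and 1855, 1920 and 1993 across OVX-AS-IV-High, with log2FC of only -0.34 and 0.25. Rflna (0.948), Osm, which encodes the cytokine oncostatin M (0.910), C3h11orf91 (0.909) and Rxrb, the retinoid X receptor beta gene (0.909), came next. The mean of the 9 includes Upk1b, which ran against the others. Closest to the mean of the 8 falling genes were Zfp335 (0.969), Osm (0.924), Plpp5 (0.916), Rflna (0.916) and Msantd5 (0.908). For single genes the closest were Aff2 for Amdhd1 (0.926), Zfp335 for Ankrd7 (0.953), Ampd2 for Gabre (0.955), Amn1 for Kcnk1 (0.955) and Eps8l1 for Prom2 (0.949). For the others they were Sptbn5, a beta-spectrin, for Lamc3 (0.979), Rflna for Slc6a20b (0.914), LOC103693292 for Faxc (0.924) and Kng2, a kininogen, for Upk1b (0.968). In second place stood Ints6, Frat2, Slc12a5, Osm, Fgfr1op2, Adamtsl5, LOC100362400, Zfp335 and Pde6d for Amdhd1, Ankrd7, Gabre, Kcnk1, Prom2, Lamc3, Slc6a20b, Faxc and Upk1b in that order. Sptbn5 showed the course of Lamc3 with the same low Sham 3: 665, 500 and 289 counts across Sham, 236, 190 and 226 across OVX, and 360, 264 and 338 across OVX-AS-IV-High.

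Of the 18 genes next to the 9 on their chromosomes 11 passed the filter, and 1 of these was called. Map3k21, beside Kcnk1, was higher in OVX with log2FC of 1.32 (edgeR adjusted p = 0.269). Lsm8 lies 150 bases from Ankrd7 and held 1971 to 4365 counts a library, with log2FC of 0.02 and 0.44. Hal, the histidine gene named above, lies next to Amdhd1. Sacm1l, which overlaps Slc6a20b in RefSeq, had 0.26 and -0.07. Ccdc38, which overlaps Amdhd1, had 0 to 2 counts a library. Whether the counting used strand is not given in the sources used here, so reads in such overlaps cannot be assigned with certainty.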

How the data were processed

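The authors sequenced poly(A) RNA, mapped reads by Tophat/Bowtie2 and took gene levels from Bowtie2 with eXpress; GEO's processing notes name mRatBN 7.2 as the build. They deposited whole-number counts per gene, not normalized, and FPKM per gene, which are those counts scaled by gene length and depth (both tables imply 1 length per gene, equal between libraries within 1%, in 11928 of 11928 well-counted genes).

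Counts of all 23026 genes were fitted in edgeR 4.0.16 (R 4.3.3; quasi-likelihood test) with TMM, the default low-count filter (minimum count 10) and 9 libraries in 1 fit; p-values were adjusted by Benjamini-Hochberg over 16874 genes. A call is an unadjusted p under 0.05 with absolute log2FC over 1, the thresholds of the study's results. CPM used TMM library sizes, and log2 CPM a prior count of 2. limma 3.58.1 and DESeq2 1.42.0 served as alternatives. The script was tested on simulated data. The depth of 34874880 to 37298250 counts puts a gene at 3 counts or fewer in a library at the limit of detection; intervals cover counting error only.

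The members and the lists were chosen with earlier results of these data known. Some genes of these lists are not reported here and stand in no list count. Named were all 9 genes and, by Pearson's r, the 2 genes most like each and the 5 most like their mean. The 5 most like the mean of the 8 falling genes were named as well. Also named were called genes of the fixed family and marker lists with the closest paralogs, and chromosomal neighbours. Lamb2, Hal, Ftcd, Upk1a, Upk2, Epcam, Cdh1, Krt14, Col1a1, Ctsk, Igfbp2 and genes that were not called were named after their values were seen. RefSeq (GRCr8) matched 21657 identifiers and gave gene order and start-site sequences only. Deviations from the group means in libraries of the same number were partly correlated. For replicates 1 to 3 the values were 0.31, 0.158 and 0.13 between OVX and OVX-AS-IV-High. They were 0.2, -0.161 and 0.253 between Sham and OVX, and 0.314, -0.158 and 0.435 between Sham and OVX-AS-IV-High. The fit with the replicate block is therefore also given. The methods call the replicates independent, without stating that each was 1 animal.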

Additional observations from a re-analysis of the deposited data

How the results depend on the processing

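The counts of the 9 genes past the thresholds depended on the scale and on single libraries. With limma on log2(FPKM + 1) 0 of the 9 passed in the first comparison, 0 in the second and 0 in both; with log2(FPKM + 0.1) the counts were 6, 3 and 2, on scales where the constant is near or above the genes' median FPKM of 0.179. Leaving out 1 library each left 7 to 9 genes in the first, 5 to 8 in the second and 5 to 8 in both; the lowest count came without OVX-AS-IV-High 1, which ended the second calls of Kcnk1 (log2FC 0.84), Lamc3 (0.94), Faxc (1.24) and Upk1b (-1.58). The replicate block over 9 libraries gave 9, 7 and 7. With OVX and OVX-AS-IV-High alone, an alternative added after seeing the data, the replicate block gave 5 of the 6 genes that still passed the filter; Faxc, Slc6a20b and Upk1b dropped out, as they did without the block. RLE size factors, library totals alone, no filter, at least 10 counts in 3 libraries, DESeq2 and the 2 groups alone left 7 to 9 and 6 to 9 genes. No log2FC turned sign in any alternative in either comparison (OVX vs. Sham, then OVX-AS-IV-High vs. OVX). For OVX-AS-IV-High vs. Sham, Slc6a20b turned from 0.62 to -0.30 without OVX-AS-IV-High 3, and Upk1b turned negative without Sham 1 (-0.34), Sham 2 (-0.24) or OVX-AS-IV-High 2 (-0.19). Of the 18 nearest genes by r, 11 were also nearest on log2(FPKM + 0.1) and 0 by deviations from group means. Counts of 0 to 4 in OVX limit Slc6a20b, and 2 and 3 in Sham limit Upk1b.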
